A study of Mus musculus with 16 samples.

Results

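The genes described are Srf, which encodes serum response factor, and 9 genes of the actin cytoskeleton known as its targets: Vcl, Tpm1, Tpm2, Tpm4, Flna, Zyx, Fblim1, Tgfb1i1 and Actn1. They were chosen by gene symbol in the platform annotation, which gave 22 of the 45101 probe sets on the array. All 10 genes were among the 14300 tested, through 21 probe sets with a signal above the filter; the probe set left out was 1447713_at of Tpm1, with signals of 0.588 to 13.2. RNA had been measured on Affymetrix mouse arrays in cultured aortic smooth muscle cells, either wild type or knockout for the Notch target and repressor Hey2, all of mixed C57BL/6 and 129SvJ background. The labels give the isolation as digestion of aortas freed of adventitia, the passage as a range only, and calponin and alpha actin staining as the purity check. All cultures had been serum starved before they received 5 ng/ml of PDGF-BB, a platelet growth factor that drives division and migration of these cells. Arrays cover 0, 15, 30, 60, 120, 180, 240 and 480 min, with 1 array for each genotype and time, so 16 arrays and 8 per genotype. No animal or isolate is named in the labels, so the p-values rest on the spread among times, possibly a technical one, and genotype cannot be told apart from culture. Time in culture was not separable from PDGF-BB, since no untreated course was analysed here.

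Serum response factor binds a DNA element called the CArG box and acts with either of a pair of partner families. Ternary complex factors of the Ets family, switched on by growth factor signalling through MAP kinase, serve the immediate early genes, while myocardin-related factors, held in the cytoplasm by monomeric actin and released when actin polymerizes, serve genes of the cytoskeleton and of the contractile state of smooth muscle. The products of the 9 other genes bundle, stabilize or anchor actin filaments, so the pathway and the filaments it builds feed back on each other.

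Several features of the arrays bear on every value below. Judged by correlation across genes, 2 wild-type libraries were out of order in time. The one labelled 60 min correlated with the knockout 480 min library (r = 0.57) and negatively with the knockout 60 min library (r = -0.33), and the one labelled 480 min did so with the knockout 60 min library (r = 0.46) and the knockout 480 min library (r = -0.38). Labels were left as they are, and the counts over the 10 genes are repeated on the other 12 arrays, those outside 60 and 480 min. Values of single genes and gene lists are repeated there only in part. The only Hey2 probe set read 14.0 to 113 in wild type and 23.3 to 63.3 in the knockout; since its position relative to the deletion is not known here, it checks no label. Of 10 smooth muscle markers all were tested and 8 were lower in the knockout, where 14.1% of all genes were lower. The summed signal of the 10 was 6780 to 9726 in the knockout against 13165 to 17297 in wild type. All 9 mesothelial and epithelial markers were tested and higher in the knockout, where 30.6% of all genes were called in either direction. On the 12 arrays outside 60 and 480 min 8 of the 9 were higher. The summed signal of the 9 was 13679 to 16246 in the knockout against 1658 to 2591 in wild type. Endothelial markers (2 of 6 tested, sums up to 80.4) and leukocyte markers (3 of 6 tested, sums up to 121) were near the filter signal of 16 per probe set in both genotypes, and the defining genes Pecam1, Cdh5 and Ptprc did not pass it. Of 7 adventitial fibroblast markers 5 were tested: Thy1 (3.12), Serpinf1 (2.89) and Dpt (2.50) were higher in the knockout and Lum (-3.11) lower on the log2 scale, with sums of 557 to 792 in the knockout and 528 to 3476 in wild type. In these bulk cultures, fewer cells of a type and less RNA per cell cannot be told apart, and the part of the other cell types in the results was not tested.

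Srf itself rose after PDGF-BB, and its rise was smaller in the knockout. In wild type, the normalized signal of probe set 1418255_s_at was 540 at 0 min, 607 at 15, 981 at 30, 674 at the labelled 60, 2408 at 120, 1659 at 180, 1441 at 240 and 1672 at the labelled 480 min. In the knockout it was 526, 645, 868, 1342, 1597, 1054, 798 and 945 at the same times. Both genotypes thus began at a like level and were highest at 120 min, 4.43-fold over 0 min in wild type and 3.02-fold in the knockout. The knockout minus wild-type difference on the log2(signal + offset) scale was -0.039, 0.089 and -0.18 at 0, 15 and 30 min, and -0.59, -0.65 and -0.85 at 120, 180 and 240 min. The labelled 60 min gave 0.99 and the labelled 480 min -0.82.

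**Figure D1:**
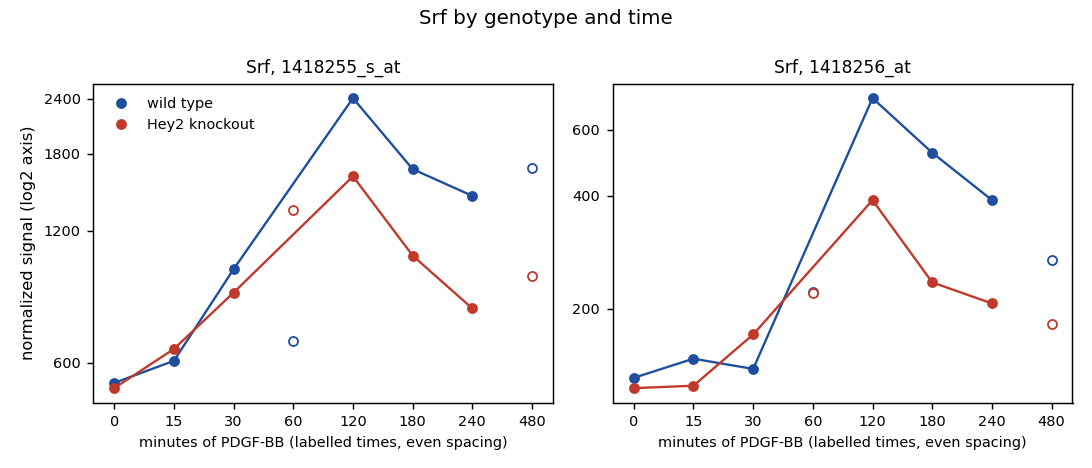
Normalized signal of the 2 Srf probe sets (log2 axis) against labelled minutes of PDGF-BB (even spacing), 1 array per point, wild type in blue and Hey2 knockout in red; open points are the 60 and 480 min arrays, which the lines skip. Both genotypes peaked at 120 min, at 2408 and 1597 on probe set 1418255_s_at.

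The second Srf probe set, 1418256_at, was also highest at 120 min in both genotypes, but differed from the first at earlier times. It read 131, 147 and 138 at 0, 15 and 30 min in wild type and 730, 522 and 390 at 120, 180 and 240 min. The knockout had 123, 124 and 171 early and 390, 235 and 206 late. At 30 min wild type was 1.05-fold over 0 min on this probe set and 1.81-fold on the first, and the genotype difference was 0.30 against -0.18. The wild-type 30 min array was the dimmest as deposited, with a 2% trimmed mean of 81.0 against 252 at 0 min. Its deposited signal on the first probe set was 339 against 609 at 0 min, so the higher value there rests on the normalization. This array is also among the early wild-type arrays of every late response below. At the labelled 60 min that difference was -0.011 against 0.99. From 120 to 240 min each wild-type array was above the knockout array of its time on both probe sets.

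In the fit across all genes, Srf was 2.63-fold higher at 120 to 240 min than at 0 min in both genotypes together (log2 difference 1.39, SE 0.30, limma with Benjamini-Hochberg adjusted p = 0.019). Without the 120 min arrays the difference was 1.15 with limma adjusted p = 0.0663, so that call rested on this time; adjusted p ran from 8.37e-05 to 0.162 over 15 alternatives. At 15 to 60 min against 0 min it was 0.62 (SE 0.30, limma adjusted p = 0.995). Without the 60 and 480 min arrays it was 0.51 at 15 to 30 min (SE 0.17) and was not called by limma either. Taking 0, 15 and 30 min as early and 120, 180 and 240 min as late, Srf rose by 1.38 in wild type (SE 0.28, limma adjusted p = 0.00147). The knockout difference was 0.73 (SE 0.28, limma adjusted p = 0.0832). The late response was thus smaller by 0.65 in the knockout, an interaction of -0.65 (SE 0.12, 95% interval -0.92 to -0.39, limma adjusted p = 0.00929). It was called under 11 of 15 alternatives, with adjusted p from 0.00624 to 1; the call was lost with the scaling as deposited, without the variance trend, without time as the block and with a spline over all arrays, and the sign was negative under each.

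The genotype difference of Srf averaged over all 8 times was not called, at -0.26 (SE 0.18, limma adjusted p = 0.329), with an interval of -0.66 to 0.15. Without the 60 and 480 min arrays it was -0.37 (SE 0.12, limma adjusted p = 0.0229). Under the deposited scaling, where the all-gene median went from -0.02 to 0.28, it was 0.068.

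The DNA just upstream of Srf holds the elements that its own product and the Ets partners are known to bind, and it is shown with that of Vcl because these were the members with a CArG box near the start. RefSeq promoter windows of assembly GRCm38.p6, from 250 bases before to 50 after a start, were given for 9 of the 10 genes, Tgfb1i1 having none. The stretch of Srf lies on the minus strand at chr17:46556195-46556304, from base -142 to -33 relative to the start, and that of Vcl on the plus strand at chr14:20929151-20929200, from -247 to -198. Capitals mark CArG boxes and, first in Srf, the Ets core CCGGAAG.
Srf: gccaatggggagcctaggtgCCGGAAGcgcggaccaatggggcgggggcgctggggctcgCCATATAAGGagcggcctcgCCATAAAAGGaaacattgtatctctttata
Vcl: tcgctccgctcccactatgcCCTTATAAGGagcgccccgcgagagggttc
Srf had 2 CArG boxes, from -82 to -73 and from -62 to -53, with the Ets core from -122 to -116, and Vcl had 1 CArG box from -227 to -218. A CArG box stood in 1.63% of 32851 RefSeq windows and in those of 2 of the 9 genes; the Ets core, searched on both strands, stood in 8.86% and in 1 of the 9. With exactly 1 mismatch, CArG-like runs stood in 19.9% of windows and in 3 of the 9 genes, Srf, Flna and Tpm1, a search made after the exact matches had been seen. No 2 of the marked runs overlapped. A match is a description of letters in this window and not evidence of binding, and the gene span in RefSeq reaches past this start of Srf.

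Vcl encodes vinculin, which links integrin adhesions to actin filaments. Its main probe set, 1416156_at, read 7774 to 10068 in wild type with a median of 8747, and 5831 to 9078 in the knockout with a median of 6858. The knockout was the lower at all 8 times, although the ranges overlapped. The difference was -0.30 (SE 0.049, limma with Benjamini-Hochberg adjusted p = 9.04e-04), or -0.28 without the 60 and 480 min arrays, and -0.042 with the scaling as deposited. The dimmer probe set 1416157_at differed by -1.21 (SE 0.14, limma adjusted p = 8.45e-05), reading 57.0 to 207 in wild type and 18.7 to 93.4 in the knockout. The probe sets therefore agreed in direction and not in size. The main probe set stood between the 99.34 and 99.96 percentile of each array, where quantile normalization leaves little room. The brightest probe sets of Tpm1, Tpm2, Tpm4, Flna and Actn1 were also high, at the 97.44 percentile or above on every array.

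Vcl rose late in both genotypes. Knockout signals went from 6194, 5831 and 6131 at 0, 15 and 30 min to 8882, 8443 and 9078 at 120, 180 and 240 min, while wild type went from 8472, 7950 and 7774 to 9714, 9552 and 10068. The early and late ranges did not overlap in either genotype, a trait not counted over all genes. The rise was 0.54 in the knockout (SE 0.050, limma adjusted p = 1.03e-05) and 0.28 in wild type (SE 0.050, limma adjusted p = 6.33e-04), which with arrays scaled to one trimmed mean was -0.035. The interaction of 0.26 was thus opposite in sign to that of Srf (SE 0.061, limma adjusted p = 0.0317). It was called under 3 of 15 alternatives, with adjusted p from 0.0274 to 1, and the second probe set gave -0.10 (SE 0.31).

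The tropomyosins are coiled-coil proteins that lie along actin filaments and set which partners can bind. Tpm2, the beta form typical of smooth muscle, was lower in the knockout on each of its 4 probe sets. Genotypes did not overlap on any of the 4, a trait not counted over all probe sets. On the brightest, 1419738_a_at, wild type read 4786 to 7028 with a median of 5546, and the knockout 3013 to 4344 with a median of 3413. The difference was -0.70 (SE 0.087, limma adjusted p = 1.38e-04), a ratio of 0.617. Under the deposited scaling it was -0.35 and the call was lost (limma adjusted p = 0.373, with a range over 17 alternatives of 2.62e-06 to 0.373). The other probe sets differed by -0.76 for 1425028_a_at, -1.50 for 1449577_x_at and -1.59 for 1419739_at, all called, in a fit in which 13.2% of all 26189 tested probe sets were lower. In Affymetrix naming the ending _x_at marks probes that may also match other transcripts, so the value of 1449577_x_at is uncertain. Over time Tpm2 was not called in either genotype, with late minus early differences of 0.19 (SE 0.11) in wild type and -8.40e-04 (SE 0.11) in the knockout on the brightest probe set. On 1419739_at, however, the wild-type signals went from 85.7, 87.6 and 115 early to 260, 214 and 191 late, and the knockout from 38.1, 41.2 and 38.2 to 58.3, 50.4 and 52.8. The interaction on that probe set was -0.75 (SE 0.25, limma adjusted p = 0.154).

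Tpm1, the alpha form, was lower in the knockout and rose late in both genotypes. Probe set 1423721_at read 3334, 3344 and 3556 at 0, 15 and 30 min in wild type and 5203, 5213 and 5485 at 120, 180 and 240 min. The knockout went from 3018, 2834 and 2999 to 3716, 3352 and 3916. The knockout was the lower at all 8 times, and its late arrays overlapped the early wild-type arrays. The genotype difference was -0.35 (SE 0.062, limma adjusted p = 0.00151). Under the deposited scaling it was 0.0086. The rise was 0.64 in wild type (SE 0.067, limma adjusted p = 8.88e-06) and 0.31 in the knockout (SE 0.067, limma adjusted p = 0.00564). The interaction was -0.33 (SE 0.079, limma adjusted p = 0.0374), called under 3 of 15 alternatives with adjusted p from 0.034 to 1.

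The second bright Tpm1 probe set, 1423049_a_at, ran from 762 to 1927 in wild type and from 499 to 1072 in the knockout. Its genotype difference was -0.65 (SE 0.12, limma adjusted p = 0.00196) and its interaction -0.55 (SE 0.17, limma adjusted p = 0.138). Probe set 1456623_at did not follow, at 58.3 to 277 in wild type and 51.7 to 313 in the knockout with a difference of 0.016. Tpm4, the form of non-muscle filaments, was lower in the knockout at 7 of 8 times on its only probe set, 3829 to 5126 against 4444 to 5615. Its difference was -0.22 (SE 0.049, limma adjusted p = 0.00522). Under the deposited scaling it was 0.11. Late against early, Tpm4 was not called, at 0.18 (SE 0.071, limma adjusted p = 0.0576) in wild type and 0.16 (SE 0.071, limma adjusted p = 0.13) in the knockout, although the late arrays were above the early ones in both. At the labelled 480 min the Tpm4 difference was 0.030, against -0.37 to -0.21 at the other times.

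**Figure D2:**
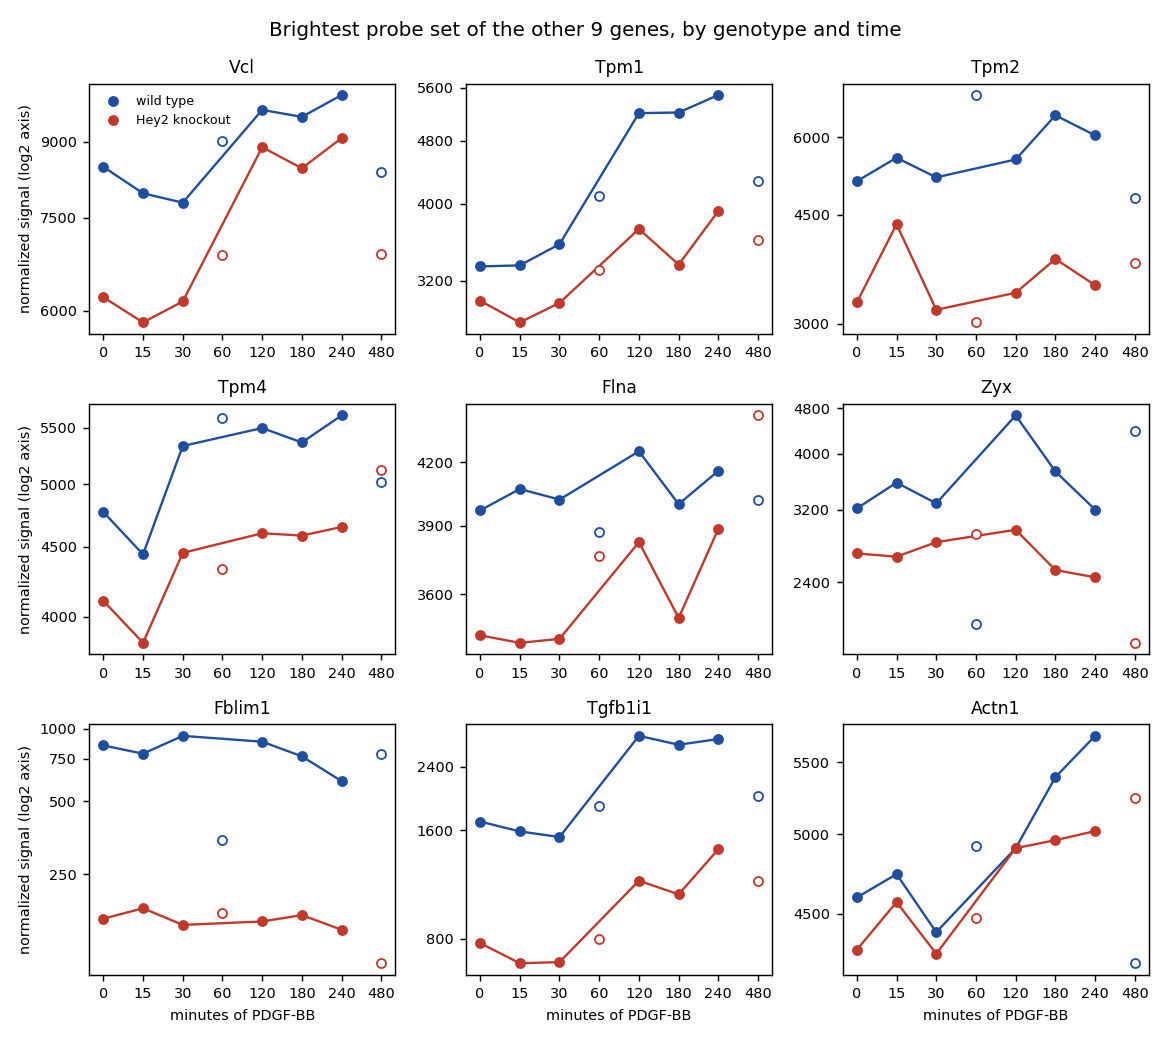
Normalized signal of the brightest probe set of each of the 9 other genes (log2 axis) against labelled minutes of PDGF-BB, 1 array per point, wild type in blue and Hey2 knockout in red; open points are the 60 and 480 min arrays. Tpm2, Fblim1 and Tgfb1i1 do not overlap between genotypes. Every array at 120 to 240 min is above every array at 0 to 30 min in both genotypes for Vcl, Tgfb1i1, Tpm1, Tpm4 and Actn1. The share of all genes with either trait was not counted.

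On the brightest probe set of each gene, the 2 largest genotype differences among the 10 genes were those of Fblim1 and Tgfb1i1, which with Zyx encode proteins with LIM domains at adhesion sites. Fblim1 encodes migfilin, which connects filamin to kindlin at focal adhesions. Probe set 1449141_at read 348 to 934 in wild type with a median of 787, and 107 to 181 in the knockout with a median of 162. No knockout array reached the lowest wild-type array, which was the one labelled 60 min. The share of all genes without such overlap was not counted. The difference was -2.17 (SE 0.17, limma adjusted p = 5.39e-06), a ratio of 0.222, and -2.26 without the 60 and 480 min arrays. On 1418569_at wild type read 92.3 to 197, and the knockout 3.51 to 18.0 with 1 of 8 arrays above the filter signal, so the size of its difference depends on the offset. Fblim1 was not called over time, at -0.20 (SE 0.14) late against early in wild type and -0.064 (SE 0.14) in the knockout.

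Tgfb1i1 encodes Hic-5, a relative of paxillin that also acts as a nuclear coactivator. In wild type its probe set 1418136_at read 1693, 1589 and 1533 at 0, 15 and 30 min and 2928, 2766 and 2868 at 120, 180 and 240 min. The knockout went from 778, 684 and 689 to 1160, 1063 and 1418. Each wild-type array was above every knockout array, and the late arrays were above the early ones in both genotypes. Neither trait was counted over all genes. The genotype difference was -1.15 (SE 0.075, limma adjusted p = 1.38e-06), a ratio of 0.451. Under the deposited scaling it was -0.81 (limma adjusted p = 0.0378, with a range over 17 alternatives of 4.54e-08 to 0.0378). The rise was 0.83 in wild type (SE 0.10, limma adjusted p = 4.02e-05) and 0.75 in the knockout (SE 0.10, limma adjusted p = 2.61e-04). The interaction was -0.083, with a 95% interval of -0.33 to 0.17.

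Zyx encodes zyxin, which recruits Ena/VASP proteins to strained filaments. Its probe set 1417240_at read 2030 to 4661 in wild type and 1885 to 2957 in the knockout. The lowest array of each genotype was at a doubted time, the labelled 60 min in wild type and 480 min in the knockout, and the knockout was the lower at 7 of 8 times. The difference was -0.40 (SE 0.14, limma adjusted p = 0.0563), and -0.42 without the 60 and 480 min arrays (SE 0.061, limma adjusted p = 1.87e-04). The wild-type peak of 4661 fell at 120 min, where the knockout had 2957. Late against early, Zyx was not called, at 0.19 (SE 0.11) in wild type and -0.048 (SE 0.11) in the knockout. The dim probe set 1438552_x_at gave a genotype difference of -0.11 (SE 0.28).

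Flna and Actn1 encode crosslinkers of actin filaments, and neither was called between genotypes over all times. The brightest probe set of each stood at the 98.03 percentile or above on every array, where quantile normalization leaves little room. Flna, filamin A, read 3872 to 4255 in wild type and 3402 to 4437 in the knockout, with a difference of -0.13 (SE 0.054, limma adjusted p = 0.094). Without the 60 and 480 min arrays it was -0.19 (SE 0.042, limma adjusted p = 0.00317). Under the deposited scaling it was 0.22. Actn1, alpha-actinin 1, read 4216 to 5695 in wild type and 4269 to 5249 in the knockout on 1428585_at. Its difference was -0.040 (SE 0.057, limma adjusted p = 0.643), with a 95% interval of -0.17 to 0.086. The dimmer Actn1 probe sets gave -0.24 (1427385_s_at, SE 0.20) and -0.41 (1452415_at, SE 0.15), and both were called without the 60 and 480 min arrays, at -0.48 each. Late against early, Actn1 rose by 0.22 in wild type (SE 0.062, limma adjusted p = 0.0132) and differed by 0.18 in the knockout (SE 0.062, limma adjusted p = 0.0546).

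**Figure D3:**
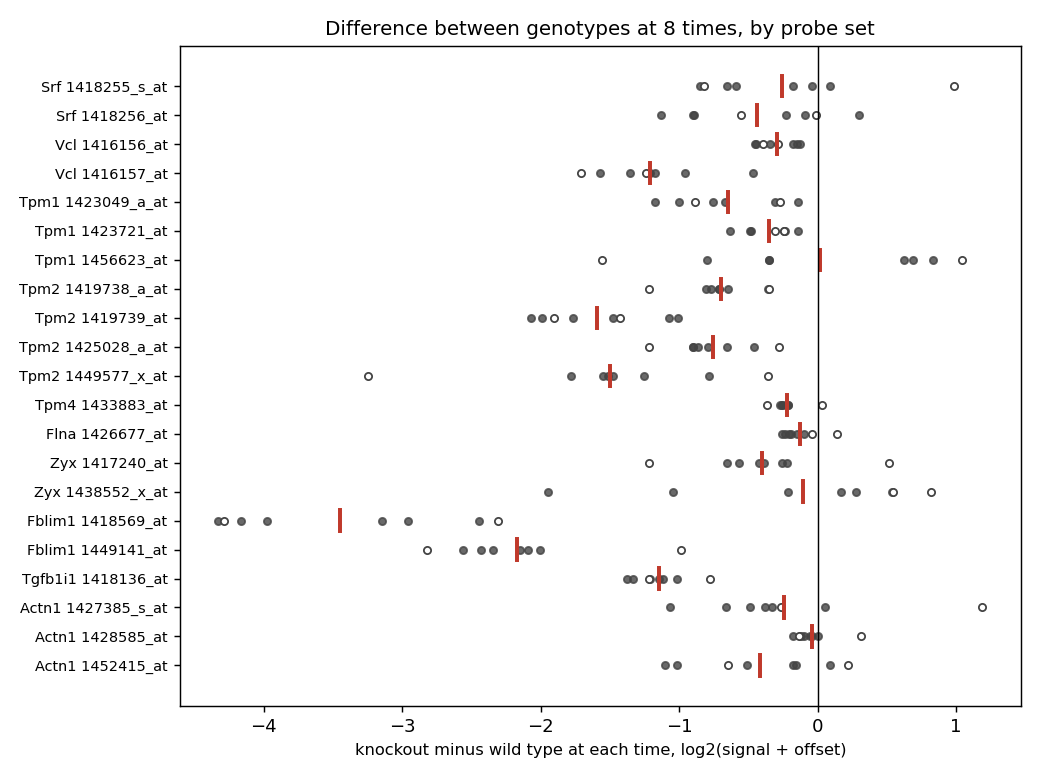
Knockout minus wild-type difference on the log2(signal + offset) scale at each of 8 times for the 21 tested probe sets; open points are 60 and 480 min, red bars the mean over times. All points lie below 0 for 11 of the 21 probe sets, those of Tpm2, Fblim1, Tgfb1i1 and Vcl and the brighter ones of Tpm1, 1423721_at and 1423049_a_at. Several of these read the same gene, and the share of all probe sets with this trait was not counted. The points of the other probe sets, among them those of Srf and Actn1, lie on both sides. With the scaling as deposited the mean of Srf, Tpm1, Tpm4, Flna and Actn1 turned above 0.

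Counted over the 10 genes, 6 were lower in the knockout and 0 higher over all times, the 0 holding also at an unadjusted limma p under 0.05. Over all 14300 genes 30.6% were called and 14.1% were lower. The median difference of the 10 was -0.32 against -0.02 for all genes. Without the 60 and 480 min arrays 9 were lower, all but Actn1, where 42.3% of 13914 genes were called and 20.8% were lower. By probe set, 12 of 21 were lower against the 13.2% above, and 18 of 21 were lower without those arrays against 17.8%. These counts include Fblim1 1418569_at, which passed the filter through wild type, so that its direction was partly set by the filter; without it they were 11 of 20 and 17 of 20. With the scaling as deposited Fblim1 and Tgfb1i1 remained called, and 5 of the 10 turned above 0, Srf, Tpm1, Tpm4, Flna and Actn1, where the median of all genes was 0.28 and 87.8% of calls were higher rather than 54.0%. Against that median each except Actn1, at 0.31, was lower.

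Against 0 min, 4 of the 10 were higher at 120 to 240 min: Srf, Tgfb1i1 (0.69), Tpm1 (0.47) and Vcl (0.36), while 10.8% of all genes were called and 5.1% were higher. Without the 60 and 480 min arrays 6 were higher, with Tpm4 (0.18) and Actn1 (0.21) added, against 14.1%. At 15 to 60 min 0 of the 10 were called by limma, against 0.014% of all genes, and at an unadjusted p under 0.05 the count was also 0. At 15 to 30 min without those arrays 0 were called, against 0.201% of all genes. At an unadjusted limma p under 0.05, for which the share of all genes was not counted, 1 of the 10 passed, Srf. The F test over the time course called Vcl and Tgfb1i1, 2 of the 10, against 2.96% of all genes, and 6 of the 10 against 35.7% without those arrays.

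Late against early, 5 of the 10 were higher in wild type, Srf, Tgfb1i1, Tpm1, Vcl and Actn1, against 15.3% of all genes. In the knockout 3 were, Tgfb1i1, Vcl and Tpm1, against 8.71%. The difference between genotypes was called for 3 of the 10, Srf and Tpm1 with a smaller rise in the knockout and Vcl with a larger one, against 4.17% of all genes. In the fit over probe sets, where 2.1% of all were called, the 2 Srf probe sets were called, at -0.65 and -0.97 (SE 0.19, limma adjusted p = 0.0222), and the remaining 19 were not. The Actb 3' to 5' signal ratio, a sign of RNA integrity and labelling, also moved with time. It was 2.41 to 3.88 early and 1.53 to 1.84 late in wild type, the 3.88 being that of the dim 30 min array. In the knockout it was 1.95 to 3.71 early and 1.54 to 2.44 late. The part of this ratio in the late response was not tested.

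**Figure D4:**
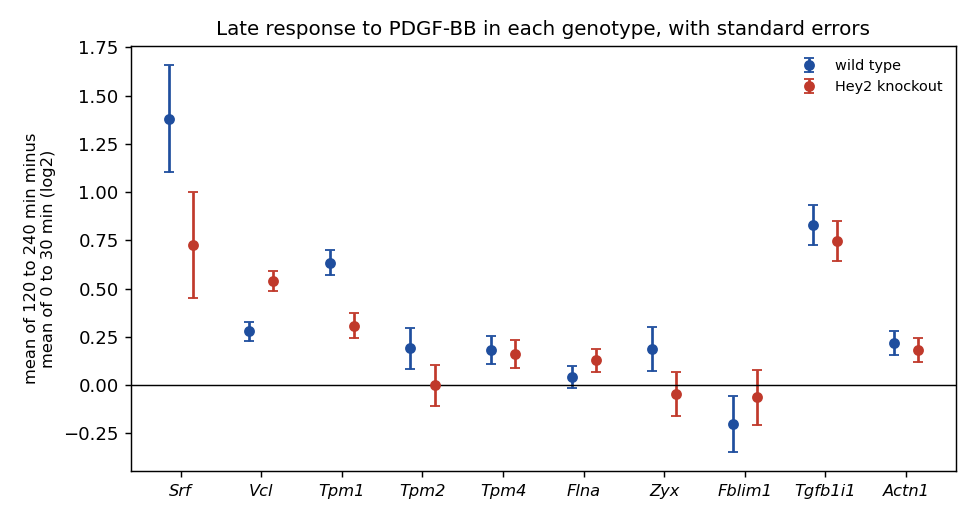
Mean of 120, 180 and 240 min minus mean of 0, 15 and 30 min on the log2(signal + offset) scale for each gene, wild type in blue and Hey2 knockout in red; bars are standard errors of the limma fit on 12 arrays. Srf stands at 1.38 and 0.73, Tpm1 at 0.64 and 0.31, and Vcl, in the other order, at 0.28 and 0.54 (in wild type -0.035 with arrays scaled to one trimmed mean).

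Of 23 tested regulators that connect actin to serum response factor, 4 were lower and 2 higher in the knockout over all times, shares near those of all genes (14.1% lower, 30.6% called). On the 12 arrays outside 60 and 480 min the counts were 7 lower and 3 higher, beside all-gene shares of 20.8% lower and 42.3% called. Late against early, 9 were higher and 4 lower in wild type, where 15.3% of all genes were higher and 37.2% were called in either direction. In the knockout 1 was higher and 2 lower, where 8.71% of all genes were higher and 19.3% were called in either direction. Mrtfa, the myocardin-related factor released from monomeric actin, was lower by a log2 difference of -1.01 (SE 0.079, limma adjusted p = 5.25e-06). The ternary complex factor Elk4 was lower by a difference of -0.45 (SE 0.067), and profilin Pfn1, which loads actin monomers, by a difference of -0.54 (SE 0.11). The formin Diaph2, an actin nucleator, was higher by 1.27 (SE 0.15). Their median difference was -0.03 against -0.02 for all genes. For the late response between genotypes 1 of the 23 was called, Pfn1 (-0.46, SE 0.092, limma adjusted p = 0.0134), where 4.17% of all genes were called.

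Of 13 relatives of the 9 cytoskeletal genes 3 were lower in the knockout, against 14.1% of all genes: Actn2 (-1.39, SE 0.25), Wtip (-0.41, SE 0.072) and the zyxin relative Lpp (-0.25, SE 0.045). At 120 to 240 min against 0 min 1 of the 13 was called, against 5.1% of all genes higher. It was Flnc, the filamin of muscle (1.93, SE 0.22, limma adjusted p = 8.37e-04). Without the 60 and 480 min arrays 5 of the 13 were higher, against 14.1% of all genes higher. The late rise of Flnc was 2.42 in wild type and 1.57 in the knockout, an interaction of -0.84 (SE 0.14, limma adjusted p = 0.00524). That interaction was called for 1 of the 13, against 4.17% of all genes. Among 36 other genes of focal adhesions and stress fibres 15 were lower and 1 higher in the knockout, against 14.1% of all genes lower, with a median of -0.18 against -0.02. Enah, an Ena/VASP protein that zyxin recruits, differed by -1.60 (SE 0.073) and Nexn, an actin-binding protein of striated and smooth muscle, by -1.40 (SE 0.082). Of the same 36, 10 were higher at 120 to 240 min than at 0 min, against 5.1% of all genes, among them the fibronectin receptor subunit Itga5 (2.84, SE 0.29) and Enah (1.14, SE 0.12). The interaction was called for 8, against 4.17% of all genes, all with a smaller rise or a larger fall in the knockout, including Fhl2 (-1.37, SE 0.13), Itga5 (-1.13, SE 0.15), Bcar1 (-1.07, SE 0.098) and Palld (-0.73, SE 0.081).

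Immediate early genes, served by serum response factor with ternary complex factors, were higher soon after PDGF-BB. At 15 to 30 min without the 60 and 480 min arrays 9 of 11 were higher, against 0.201% of all genes called in either direction. The 9 included Nr4a1 (4.20), Egr3 (3.92) and Egr1 (2.32), where 0 of the 10 were called. With all arrays at 15 to 60 min, 1 of 11 was called, Egr1 (2.33, SE 0.24, limma adjusted p = 0.00794), against 0.014% of all genes. For the late response the interaction was called for 3 of 11, against 4.17% of all genes: Egr2 (-1.79, SE 0.15), Junb (-1.23, SE 0.21) and Ier2 (-0.89, SE 0.16). Each had a smaller rise or a larger fall from the early to the late window in the knockout. The early window holds 15 and 30 min, when 9 of 11 were already higher, so this is not a change from 0 min. Smooth muscle markers held 8 of 10 lower in the knockout, as given above, against 14.1% of all genes. Of these, Myl9 stood at -2.84 (SE 0.10) and Cnn1 at -2.33 (SE 0.15).

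Across the 12 arrays at 0 to 30 and 120 to 240 min, the 5 genes outside the group with the profile most like that of Srf were Rbm12 (r = 0.97), Purb, Ier5, Tent4a and Arid5a (0.95 to 0.96). For the mean standardized profile of the other 9 genes they were Agfg1 (r = 0.99), Enah, Actg2, Enc1 and Ldb3 (0.98 to 0.99). Among the 10, Srf correlated with Tpm1 at 0.80 and with Fblim1 at 0.25, and Fblim1 with Tpm2 at 0.91. These points share genotype, time and array scaling, and the coefficients describe these arrays only.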

How the data were processed

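Signal intensities on a linear scale were deposited for 45101 probe sets on 16 arrays. Per the submitters' processing notes, MAS5 was used; its version and scaling target: not given in the sources used here. Array brightness differed (2% trimmed mean intensity 81.0 to 342.5), so signals were quantile normalized and put on the scale log2(signal + 4.86), where the offset is the 20th percentile, which makes changes of dim genes look smaller than they are. Sample titles gave genotype and time. A probe set was tested if above 16 (40th percentile) on at least 3 arrays, and a gene was represented by the brightest of its tested probe sets. Probe sets with several symbols (932) or none (9160) in the platform annotation were not used.

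All 14300 genes were fitted with limma 3.58.1 (R 4.3.3), with a variance trend on intensity; p-values were adjusted over all genes by Benjamini-Hochberg, with a threshold of 0.05. Genotype and time windows against 0 min came from a model of time plus genotype on 16 arrays (7 residual degrees of freedom), in which arrays of one time form the block. Late minus early changes were fitted per genotype on 12 arrays (8 residual degrees of freedom), and their difference between genotypes with time as the block (4). The fits were also run on simulated data with independent noise. Those data held no misplaced arrays and no culture effect, so that run does not bear on these limits. The members, gene lists and tests were chosen with earlier results of these data known. All 10 members and their probe sets are named; other genes are the up to 4 of a list with the smallest p in a comparison, and the 5 with the most similar profile. Promoter windows are those of RefSeq, assembly GRCm38.p6. Alternatives changed the scaling, offset, filter, variance trend, probe sets, block, shape of the interaction and the times included; the motif search with 1 mismatch was added after exact matches had been seen.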

Additional observations from a re-analysis of the deposited data

Results flagged for a closer look

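Among 30 groups of 8 values, 7 had a value standing apart from the rest. The groups were both genotypes and their differences for each of the 10 genes. The threshold passes about 1 in 20 groups of independent values from 1 distribution. These groups are time courses, and each difference group reuses the arrays of the genotype groups, so that rate gives no measure of chance here. All 7 lay at 60 or 480 min. Fblim1 was low on the wild-type array labelled 60 min, at a log2 value of 8.46, and on the knockout 480 min array, at 6.81, and its difference at 60 min was -0.98. Zyx was low on the same arrays, at 10.99 and 10.88. The difference at 480 min stood above those of the other times for Tpm4 (0.030) and Actn1 (0.32).

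The late response differed between genotypes by the test of the difference itself for 3 genes. It was smaller in the knockout for Srf (-0.65) and Tpm1 (-0.33) and larger for Vcl (0.26).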

How the results depend on the processing

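With the scaling as deposited, 2 of the 10 genes were called between genotypes instead of 6, 0 at 120 to 240 min instead of 4, 0 over the time course instead of 2, 0 for the late response between genotypes instead of 3, 1 late in wild type instead of 5, 0 late in the knockout instead of 3, and 6 probe sets instead of 12. With arrays scaled to one trimmed mean, 1 was called over the time course, 1 for the late response between genotypes and 3 late in wild type. The late response between genotypes was called for 1 gene without the filter or with the mean over probe sets, and for 0 without the variance trend or with the spline. The time course was called for 1 gene without the filter or with the offset divided by 3 and for 0 without the variance trend, which also left 2 at 120 to 240 min. Without the 60 and 480 min arrays 6 were called over the time course. With no replicate block for time, 7 genes and 13 probe sets were called between genotypes and 0 for the late response. Leaving out each time in turn gave 6 to 8 genes and 12 to 15 probe sets between genotypes, 2 to 4 genes at 120 to 240 min (2 without 240 min), 0 to 4 over the time course, 1 to 2 for the late response between genotypes, 4 to 5 late in wild type and 3 to 5 late in the knockout (5 without 30 min). The count at 15 to 60 min was 0 under every setting run.

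Where signs turned, the values had been called for Tpm1 and Tpm4 between genotypes and for Vcl late in wild type, and not called for the rest; the cause was not tested. With the scaling as deposited the genotype difference became 0.068 for Srf, 0.0086 for Tpm1, 0.11 for Tpm4, 0.22 for Flna and 0.31 for Actn1; the late response between genotypes 0.0052 for Tpm4 and -0.070 for Fblim1; late minus early 0.20 for Fblim1 in wild type, and 0.28 for Tpm2, 0.25 for Zyx and 0.13 for Fblim1 in the knockout. With one trimmed mean the late response between genotypes became 0.086 for Tpm4 and 0.022 for Actn1, and late minus early in wild type -0.035 for Vcl and -0.027 for Flna. With the mean over probe sets, 120 to 240 against 0 min became -0.18 for Zyx and 0.10 for Fblim1, the late response between genotypes 0.054 for Zyx and 0.030 for Actn1, late minus early in wild type -0.11 for Zyx and 0.044 for Fblim1, and in the knockout 0.26 for Tpm2 and 0.14 for Fblim1. With the spline the late response between genotypes became 0.074 for Tpm2, 0.083 for Tpm4, -0.36 for Fblim1, 0.049 for Tgfb1i1 and 0.087 for Actn1. Over the times left out, it ran from -0.086 to 0.0047 for Actn1, late minus early in the knockout from -0.084 to 0.15 for Tpm2 and from -0.13 to 0.0046 for Zyx, and 120 to 240 against 0 min from -0.0068 to 0.20 for Zyx. The CArG box count of 2 genes held in the upstream part of the window alone. The number of arrays limits the precision, and a missed threshold does not show equal values.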
